A study of Mus musculus with 7 samples.

Results

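The genes of the mitochondrial ribosomal proteins were taken by name from the liver gene counts, as every symbol made of Mrpl or Mrps, a number and, where present, a letter from a to c. This rule, which used no measured value, found 78 of the 23347 genes, 49 named Mrpl and 29 named Mrps. All 78 had enough counts to be tested. Their counts per library ranged from 180 to 5289.

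Liver mRNA was sequenced from 7 male mice on a C57BL/6 background that had all eaten the CDAHFD for 15 weeks, starting at 6 to 8 weeks of age. The CDAHFD is a high-fat diet without choline that produces steatohepatitis in mice. The 4 controls, called WT in the labels, were B4galt1 flox/flox littermates, which carry the floxed gene but no Cre. The 3 mice labelled B4galt1 hep-/- carry the same floxed alleles and Alb-Cre, a recombinase driven by the albumin promoter, which acts in hepatocytes and leaves the gene in the other cells of the liver. The comparison asked which mRNAs differed between these genotypes on the diet, and no chow-fed library was analysed here.

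The mitochondrial ribosome translates the few proteins encoded in mitochondrial DNA, all of them subunits of the respiratory chain and of ATP synthase. Its rRNAs come from mitochondrial DNA, whereas every one of its proteins is encoded in the nucleus, made in the cytosol and imported. Some of these proteins have counterparts in the bacterial ribosome, and others are found only in mitochondria, where they replace lost rRNA or bind the inner membrane. In the liver, the respiratory chain that depends on this translation passes electrons released from fatty acids and amino acids on to oxygen.

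The targeted gene, B4galt1, did not pass the test between the groups as labelled (log2 fold change -0.52 ± 0.26, SE, edgeR's adjusted p = 0.18). It was at 48.7, 53.0, 49.2 and 51.6 CPM (counts scaled to a library of standard size with TMM factors) in controls 1 to 4. In the livers labelled B4galt1 hep-/- 1 to 3 it was at 28.4, 23.9 and 53.7 CPM, so that the library labelled hep-/- replicate 3 lay above every control (exact permutation test, two-sided, p = 0.143, where the smallest possible p is 0.0286). Without that library, the log2 fold change was -0.96 and passed the test (edgeR's adjusted p = 0.014). Total counts were between 30608271 and 34586588 for the livers labelled B4galt1 hep-/-, and in the 4 controls they started at 37838654. The share of counts from mtDNA-encoded genes was 14.4% to 22.6% against 3.88% to 8.0%. The hepatocyte markers were abundant in every liver, with a summed level of 96047 to 150869 CPM in the livers labelled B4galt1 hep-/- and 79853 to 119162 CPM in controls. Of 8 macrophage markers, 4 were lower by the rule given below (Adgre1, Cd68, Vsig4 and Trem2), and the summed level of all 8 was 296 to 331 CPM against 474 to 863 CPM, with none of the 8 at 0. Kdr, an endothelial gene, was the 1 call among the markers of endothelial, stellate, bile duct, lymphoid and neutrophil cells, and it was lower. The part of depth, mtDNA-encoded counts and macrophage content in the results below was not tested.

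To show what the genes carry at their starts, the promoter windows of 5 members are printed, namely the 3 Mrps18 paralogues and the members with the largest rise and the largest fall. Each window holds 300 bases of the gene's own strand from RefSeq on GRCm38.p6, and position 1 is the annotated transcription start. Capitals mark the letters of CCGGAAG (the core of ETS factors such as GABP), GCGCANGCG (NRF1), AAGATGGCG (YY1), GGGCGG (SP1) and CACGTG (the E-box), searched on both strands. Mrpl18 lies at chr17:12916042-12916341 on the minus strand, Mrps12 at chr7:28741772-28742071 on the minus strand, Mrps18a at chr17:46110754-46111053 on the plus strand, Mrps18b at chr17:35916391-35916690 on the minus strand and Mrps18c at chr5:100798509-100798808 on the plus strand.
Mrpl18: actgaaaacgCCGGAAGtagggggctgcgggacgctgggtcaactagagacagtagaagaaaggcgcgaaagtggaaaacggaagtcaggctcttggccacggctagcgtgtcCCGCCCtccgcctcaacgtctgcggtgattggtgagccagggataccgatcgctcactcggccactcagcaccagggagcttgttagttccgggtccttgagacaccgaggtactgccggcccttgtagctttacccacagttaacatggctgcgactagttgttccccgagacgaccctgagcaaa
Mrps12: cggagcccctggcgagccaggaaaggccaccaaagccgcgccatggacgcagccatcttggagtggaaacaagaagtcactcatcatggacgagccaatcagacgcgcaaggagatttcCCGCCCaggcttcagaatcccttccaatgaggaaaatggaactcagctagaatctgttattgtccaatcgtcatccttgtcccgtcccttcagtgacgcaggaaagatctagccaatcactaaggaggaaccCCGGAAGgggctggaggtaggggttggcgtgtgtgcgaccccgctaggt
Mrps18a: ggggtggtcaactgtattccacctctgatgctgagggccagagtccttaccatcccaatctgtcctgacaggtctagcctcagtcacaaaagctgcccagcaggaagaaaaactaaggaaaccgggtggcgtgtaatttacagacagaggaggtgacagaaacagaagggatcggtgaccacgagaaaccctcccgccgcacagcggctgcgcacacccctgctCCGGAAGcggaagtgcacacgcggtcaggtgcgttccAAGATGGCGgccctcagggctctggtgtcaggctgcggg
Mrps18b: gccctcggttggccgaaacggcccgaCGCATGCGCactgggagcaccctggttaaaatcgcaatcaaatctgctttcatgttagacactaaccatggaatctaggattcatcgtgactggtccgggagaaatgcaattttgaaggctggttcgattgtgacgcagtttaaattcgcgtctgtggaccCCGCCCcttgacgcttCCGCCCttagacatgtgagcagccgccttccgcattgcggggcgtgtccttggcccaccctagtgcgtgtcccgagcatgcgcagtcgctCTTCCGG
Mrps18c: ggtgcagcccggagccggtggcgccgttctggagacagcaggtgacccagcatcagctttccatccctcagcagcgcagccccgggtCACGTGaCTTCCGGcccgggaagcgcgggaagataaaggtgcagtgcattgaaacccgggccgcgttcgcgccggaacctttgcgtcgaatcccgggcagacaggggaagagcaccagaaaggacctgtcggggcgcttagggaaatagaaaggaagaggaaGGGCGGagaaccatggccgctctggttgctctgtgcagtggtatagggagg
Each of these windows held the ETS letters once, at position -26 in Mrps18a, followed by the YY1 letters at position 12, and at position 2 in Mrps12. The NRF1 letters occurred in Mrps18b alone among the printed windows.

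The 78 genes did not move together. A gene was called where edgeR's quasi-likelihood test gave an adjusted p under 0.05 and the log2 fold change was beyond 0.58 in either direction. By this rule 4 members rose in the livers labelled B4galt1 hep-/- (Mrpl18, Mrps21, Mrpl38 and Mrps15), beside 8.0% of the 15179 genes tested. Another 7 fell (Mrps12, Mrps18b, Mrps18a, Mrpl3, Mrpl41, Mrps34 and Mrps27), beside 7.83% of all genes. Both directions together made 11 of 78, or 14.1%, beside 15.8%, so that calls were about as frequent among the members as among all genes. The median log2 fold change of the members was -0.11, against 0.02 over all genes tested, and 44 of 78 were negative, beside 48.7% of all genes. In the 7597 genes between the lowest and the highest member in mean control CPM (8.76 to 125), 8.33% were called higher and 11.0% lower, and the median was -0.08.

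The range of the members was wide around this small median. Their log2 fold changes ran from -1.26 (Mrps12) to 1.21 (Mrpl18), and the 67 members that did not pass the test lay between -0.76 (Mrpl46) and 0.55 (Mrps6). In 16 members every liver labelled B4galt1 hep-/- lay below every control, beside 15.0% of all genes, and in 8 every such liver lay above, beside 13.6%. Together, 24 of 78 members did not overlap, beside 28.6% of all genes. In the heatmap, the members at its top and bottom separate the 2 groups, while in most others the groups overlap.

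**Figure D1:**
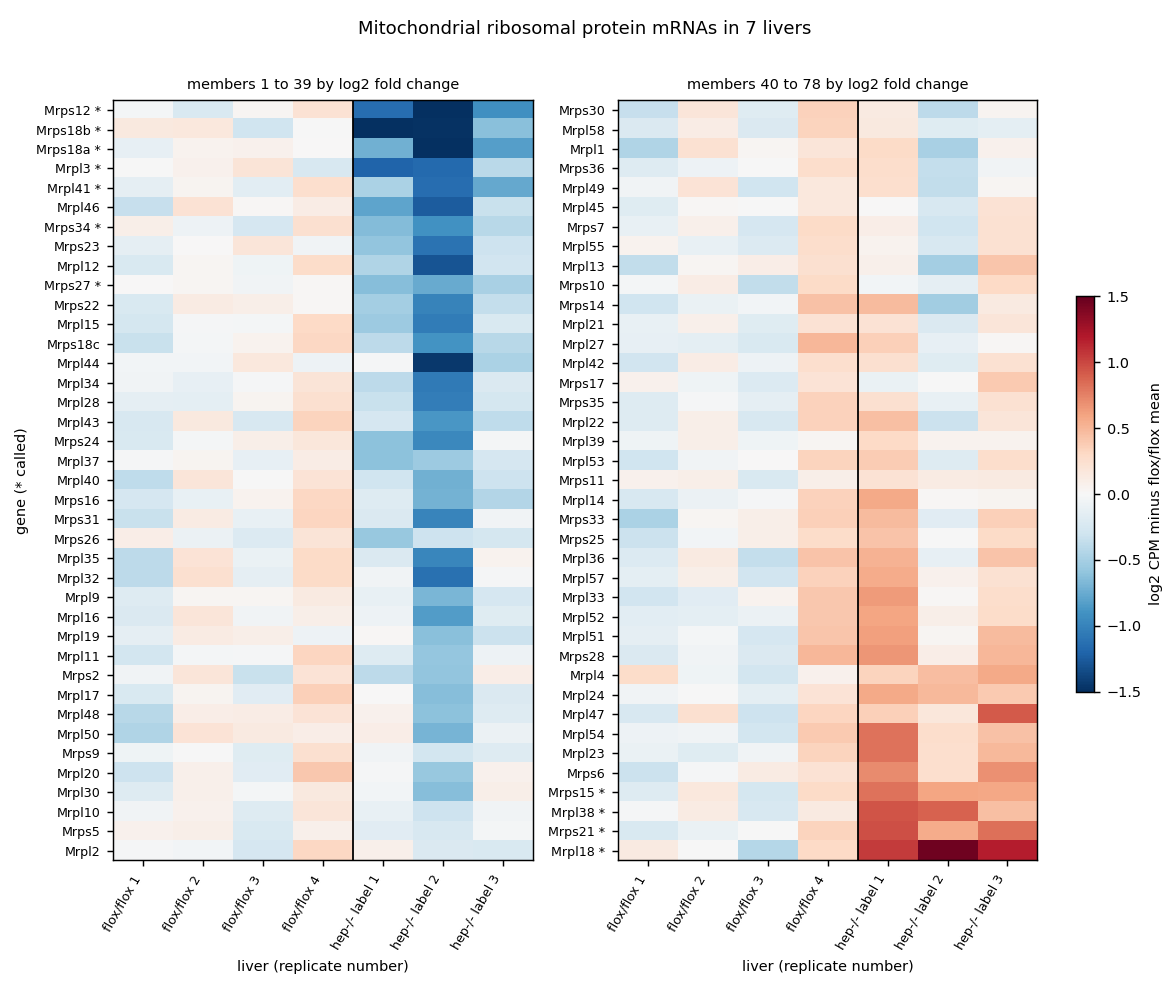
Each row is 1 of the 78 genes, ordered by log2 fold change from the top left to the bottom right, and each column is 1 liver. Color gives log2 CPM minus the mean of the 4 flox/flox livers (red higher, blue lower, with colors saturating at 1.5), and asterisks mark the 11 genes that passed the test. The column of replicate 2 labelled hep-/- is the bluest, holding the lowest value of 45 genes.

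The counts moved when single livers were left out, and so did those of all genes tested. Without the library labelled B4galt1 hep-/- replicate 3, 3 members were higher and 9 lower. Leaving out hep-/- replicate 1 left 1 higher and 4 lower, and leaving out hep-/- replicate 2 left 2 and 3. Among controls, the counts were 1 higher and 2 lower without replicate 2, 2 and 5 without replicate 3, and 4 and 4 without replicate 4. Over these 7 fits, which include that without control replicate 1, the share of all genes called by edgeR ran from 2.74% to 8.66% higher and from 3.16% to 7.51% lower, with the lowest share in both directions without control replicate 2. The calls of Mrpl18, Mrps12 and Mrps18b held in each of the 7 fits that left out a liver, and that of Mrps18a in 6 of them.

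Among the members that rose, Mrpl18 changed most. It belongs to the family of the bacterial 5S rRNA-binding protein L18 and sits in the large subunit. Its level was 53.2, 48.3, 36.0 and 59.6 CPM in controls and 100.3, 132.9 and 109.2 CPM in the livers labelled B4galt1 hep-/-. The lowest of the latter was well above the highest control, and the rise was largest in replicate 2, in which most members were at their lowest. The means were 49.3 ± 9.99 (SD, n = 4) and 114 ± 16.8 (SD, n = 3) CPM, a 2.32-fold difference with a log2 fold change of 1.21 ± 0.21 (SE) and an adjusted p of 0.0059 by edgeR's quasi-likelihood test. Tcp1, a subunit of the cytosolic chaperonin CCT whose start faces that of Mrpl18, had a log2 fold change of -0.09 ± 0.21 (SE).

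Mrps21, the counterpart of bacterial S21 in the small subunit, was at 27.1, 29.7, 31.7 and 40.2 CPM in controls. It was at 62.1, 46.8 and 56.6 CPM in the livers labelled B4galt1 hep-/-, all above the highest control. The log2 fold change was 0.78 ± 0.19 (SE), with an adjusted p of 0.022 by edgeR's quasi-likelihood test, and the call was lost without control replicate 2 (0.074) or hep-/- replicate 1 (0.063).

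Mrpl38, a protein of the large subunit with no bacterial counterpart, was at 52.2, 57.3, 44.7 and 57.9 CPM in controls and at 101.1, 97.2 and 72.3 CPM in the livers labelled B4galt1 hep-/-. Its lowest value in the latter group was that of replicate 3, the library with B4galt1 at the control level. The log2 fold change was 0.77 ± 0.19 (SE, edgeR's adjusted p = 0.022). Leaving out control replicate 2 or 3, or hep-/- replicate 1 or 2, took the adjusted p to between 0.053 and 0.069.

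Mrps15, which contacts the rRNA of the small subunit as its bacterial counterpart S15 does, was at 23.4, 29.9, 22.3 and 32.7 CPM in controls and at 47.1, 40.4 and 40.03 CPM in the livers labelled B4galt1 hep-/-. The groups did not overlap, and the log2 fold change was 0.65 ± 0.19 (SE, edgeR's adjusted p = 0.040). Of the 7 fits without a liver, 1 kept this call, the fit without control replicate 4.

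**Figure D2:**
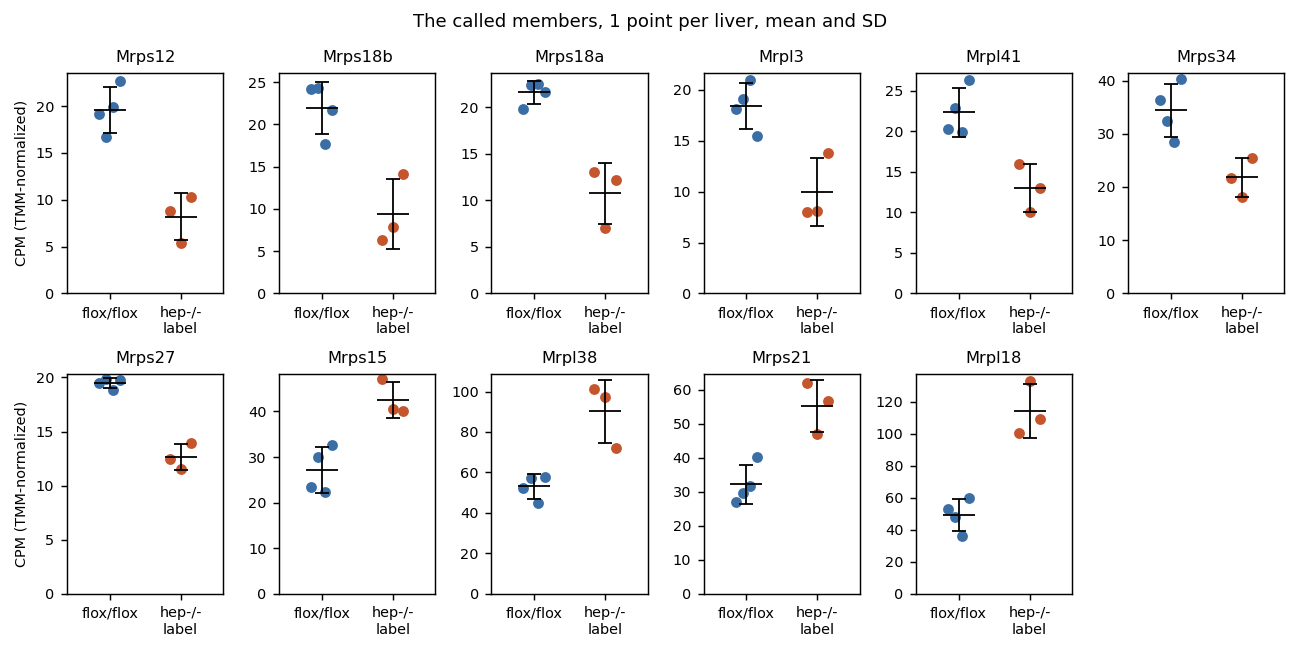
Normalized level (CPM, axes from 0) of the 11 members that passed the test, with 1 point per liver, the mean as a wide bar and the SD as whiskers, for flox/flox (blue, n = 4) and livers labelled hep-/- (orange, n = 3). In each panel the 2 groups do not overlap, and the largest fold difference is that of Mrps12 among the members that fell and that of Mrpl18 among those that rose.

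Among the members that fell, Mrps12 changed most. It corresponds to bacterial S12 and lies at the decoding center of the small subunit. It was at 19.2, 16.7, 19.9 and 22.7 CPM in controls and at 8.83, 5.43 and 10.3 CPM in the livers labelled B4galt1 hep-/-. Every liver of the latter group was thus far below the lowest control. The means were 19.6 ± 2.46 (SD, n = 4) and 8.18 ± 2.50 (SD, n = 3) CPM, with a log2 fold change of -1.26 ± 0.24 (SE) and an adjusted p of 0.0089 by edgeR's quasi-likelihood test. Sars2, the mitochondrial seryl-tRNA synthetase, starts next to Mrps12 on the opposite strand and had a log2 fold change of -0.05 ± 0.33 (SE).

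The Mrps18 paralogues descend from bacterial S18 and are distinct subunits that do not share a place in the ribosome. Mrps18b and Mrps18c are proteins of the small subunit, whereas Mrps18a, despite its name, belongs to the large subunit. Mrps18b was at 24.1, 24.3, 17.7 and 21.7 CPM in controls and at 6.33, 7.81 and 14.1 CPM in the livers labelled B4galt1 hep-/-. Its highest value in the latter group was again that of replicate 3, and still lay below every control (log2 fold change -1.22 ± 0.28, SE, edgeR's adjusted p = 0.015). Mrps18a was at 19.8, 22.5, 22.5 and 21.6 CPM against 13.1, 7.03 and 12.2 CPM, with a log2 fold change of -1.01 ± 0.23 (SE, edgeR's adjusted p = 0.016). Without control replicate 2, its adjusted p was 0.051. Mrps18c was at 18.9, 23.5, 24.8 and 29.7 CPM against 18.2, 12.9 and 17.9 CPM. These values did not overlap either, but its log2 fold change of -0.57 ± 0.21 (SE) did not pass the test (edgeR's adjusted p = 0.086). With limma on FPKM values it passed in all 3 fits (from -0.69 to -0.68, limma's adjusted p from 0.010 to 0.023). Those fits called 4.74% to 17.8% of all genes lower and 1.05% to 5.51% higher, and no fit to counts called Mrps18c. Per kilobase, using the gene length behind the deposited FPKM, control levels were 48.3 ± 8.83 for Mrps18c, 25.01 ± 1.47 for Mrps18a and 13.8 ± 1.95 for Mrps18b (CPM per kb, SD, n = 4). In the livers labelled B4galt1 hep-/- the same order was kept at 32.5 ± 5.94, 12.5 ± 3.78 and 5.93 ± 2.60 CPM per kb (SD, n = 3). This order depends on the lengths used, which were 502, 864 and 1587 bases for Mrps18c, Mrps18a and Mrps18b. Before division by length, their control means were 24.2, 21.6 and 22.0 CPM. The exons annotated by GENCODE cover 1076, 3690 and 2089 bases.

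Mrpl3, whose bacterial counterpart L3 reaches toward the peptidyl transferase center, was at 18.1, 19.1, 20.9 and 15.4 CPM in controls and at 7.95, 8.14 and 13.8 CPM in the livers labelled B4galt1 hep-/-. The gap between the groups was small, since replicate 3 came close to the lowest control (log2 fold change -0.88 ± 0.24, SE, edgeR's adjusted p = 0.031). The call was lost without control replicate 2 or 3 and without hep-/- replicate 1 or 2, at an adjusted p of up to 0.093.

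Mrpl41, a large-subunit protein found only in mitochondria, was at 20.2, 22.9, 19.9 and 26.4 CPM against 16.0, 10.1 and 13.0 CPM. All livers labelled B4galt1 hep-/- were lower (log2 fold change -0.78 ± 0.21, SE, edgeR's adjusted p = 0.031). The adjusted p rose to between 0.066 and 0.097 without control replicate 2 or 4, or without hep-/- replicate 2 or 3.

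Mrps34, a small-subunit protein found only in mitochondria, was at 36.3, 32.4, 28.5 and 40.3 CPM in controls and at 21.8, 18.1 and 25.5 CPM in the other group. The groups stood apart by a narrow margin (log2 fold change -0.66 ± 0.19, SE, edgeR's adjusted p = 0.042). Its exons overlap those of Mapk8ip3 on the opposite strand over 1309 of 2064 bases and those of Nme3 on the same strand over 763 bases. Some of its reads may therefore fit more than 1 gene, and whether such reads were counted or dropped was not tested.

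Mrps27, an RNA-binding pentatricopeptide repeat protein of the small subunit, had the most even values, 19.5, 19.8, 18.8 and 19.8 CPM in controls and 12.5, 11.6 and 13.9 CPM in the livers labelled B4galt1 hep-/-. The spread within each group was small beside the difference (log2 fold change -0.62 ± 0.17, SE, edgeR's adjusted p = 0.035). The calls of Mrps34 and Mrps27 were nevertheless fragile, holding in 2 and 1 of the 7 fits that left out a liver. Mrps34 kept its call without control replicate 3 or hep-/- replicate 3, and Mrps27 kept it without hep-/- replicate 3 alone.

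Ordered by the structure of the ribosome, calls in both directions occurred in the small and in the large subunit. Of 16 small-subunit proteins with a bacterial counterpart, 2 rose and 1 fell, and the median log2 fold change was 0.02. In this grouping Mrps18b and Mrps18a were counted as found only in mitochondria, although both descend from bacterial S18. Of the 10 small-subunit proteins so counted, none rose and 3 fell by edgeR (Mrps18b, Mrps27 and Mrps34). At an unadjusted p under 0.05 these were 0 and 5 members (16.8% of all genes tested were positive and 16.1% negative at that p), as they were among the calls of DESeq2, which added Mrps22 and Mrps23 and called 11.3% of all genes higher and 10.3% lower. The median of these 10 was -0.49, and 6 of them lay below all controls in every liver labelled B4galt1 hep-/-, beside 15.0% of all genes, while 7.83% of all genes were called lower. The 30 large-subunit proteins with a bacterial counterpart had 1 call in each direction and a median of -0.15. In the 21 large-subunit proteins found only in mitochondria, 1 rose and 2 fell, with a median of -0.07. Mrps36, which bears the name of the family but is a component of the alpha-ketoglutarate dehydrogenase complex, had a log2 fold change of -0.03. Over both subunits, the proteins counted as found only in mitochondria had 1 rise and 5 falls in 31, with Mrps18a and Mrps18b among the falls. Those with a bacterial counterpart had 3 rises and 2 falls in 46. The difference between these classes was not tested.

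**Figure D3:**
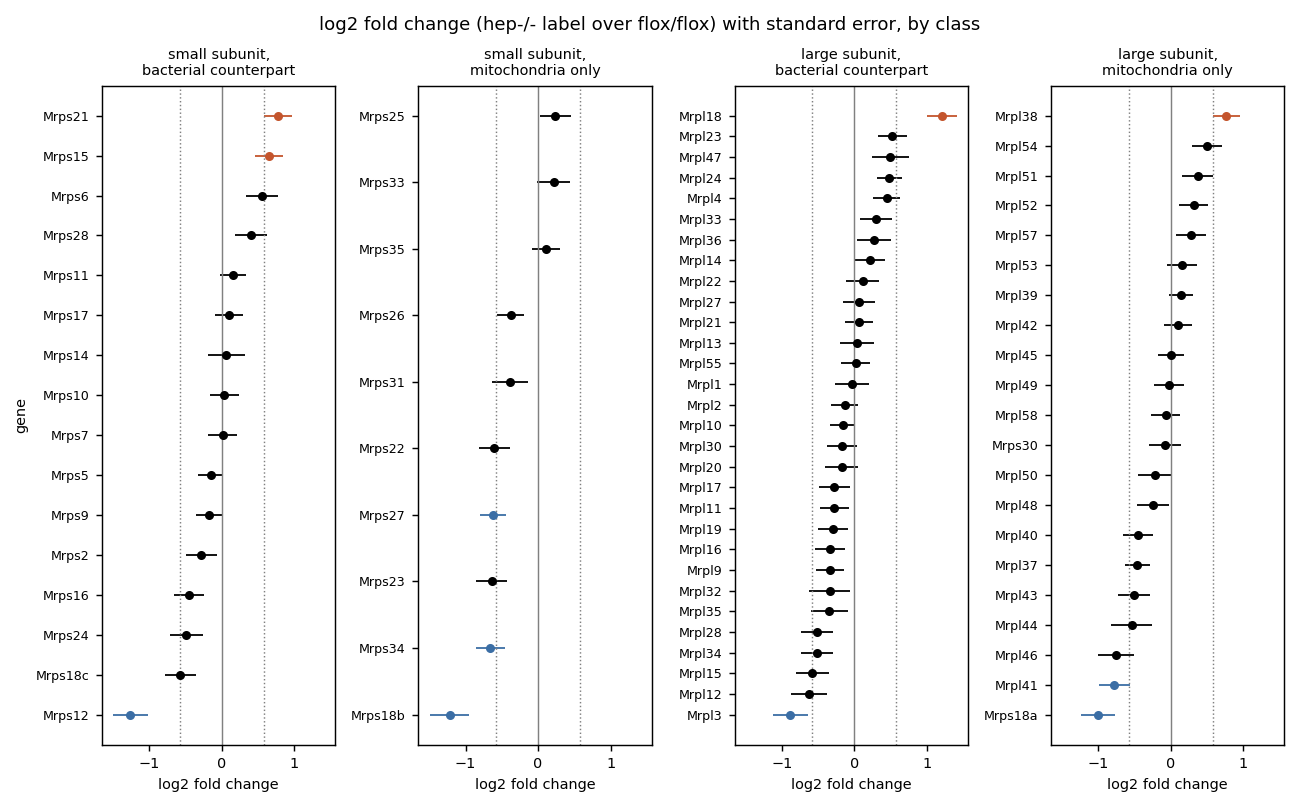
Log2 fold change with its standard error for 77 members in 4 classes (Mrps36 is left out), with genes on the vertical axis and dotted lines at -0.58 and 0.58. Members that rose are orange, members that fell are blue and the others black. In the small-subunit class found only in mitochondria, 7 of the 10 points lie below 0.

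Of the members named for their part in translation, Mrpl12, the stalk protein that recruits translation factors, was at 105.4, 125.9, 118.2 and 149.4 CPM in controls and at 90.2, 50.4 and 101.6 CPM in the livers labelled B4galt1 hep-/-. Its groups did not overlap, but its log2 fold change of -0.63 ± 0.25 (SE) did not pass (edgeR's adjusted p = 0.10). It passed in the 3 fits of limma to FPKM values (-0.80 in each, limma's adjusted p from 0.012 to 0.043). Those fits called 4.74% to 17.8% of all genes lower and 1.05% to 5.51% higher, and no fit to counts called Mrpl12. Mrpl10 and Mrpl11, which form the base of the stalk, had log2 fold changes of -0.16 ± 0.17 and -0.28 ± 0.20 (SE). Mrpl58, a peptidyl-tRNA hydrolase that frees stalled ribosomes, had a log2 fold change of -0.07 ± 0.20. Mrpl45, which ties the ribosome to the inner membrane, had mean levels of 39.9 ± 3.80 (SD, n = 4) and 39.9 ± 6.26 (SD, n = 3) CPM, with a log2 fold change of 0.00 ± 0.18 (SE).

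Mrpl12 was also the most abundant member per length in controls, at 127 ± 18.9 CPM per kb (SD, n = 4). It was followed by Mrpl52 (81.5 ± 16.4), Mrpl42 (65.2 ± 10.4), Mrps21 (63.1 ± 11.1) and Mrpl33 (60.3 ± 13.4), all large-subunit proteins apart from Mrps21. These ranks depend on the lengths used, which for these members were between 412 and 981 bases. For Mrpl33 and Mrpl42 they were 466 and 689 bases, where the exons annotated by GENCODE cover 7326 and 3682. Mrpl12 lay above Mrpl52 in every control, whereas from Mrpl52 down to Mrpl33 no neighbours in this order differed by more than the larger of their SDs. In the livers labelled B4galt1 hep-/-, Mrps21 came first at 108 ± 15.2 CPM per kb (SD, n = 3), then Mrpl52 at 101 ± 18.4 and Mrpl12 at 82.3 ± 27.4, which again lay within their spread. The lowest members per length in controls were Mrps25 (1.79 ± 0.30), Mrpl3 (2.11 ± 0.26) and Mrpl19 (2.60 ± 0.22), for which the length behind the deposited FPKM was long, between 5016 and 8707 bases. Mrpl52, Mrpl42, Mrpl33, Mrps25 and Mrpl19 did not pass the test, with log2 fold changes of 0.31, 0.10, 0.30, 0.24 and -0.29.

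The 7 livers differed as much within the groups as between them in the overall level of the members. The mean log2 CPM of the 78 genes was 4.62, 4.81, 4.68 and 5.01 in controls and 4.81, 4.36 and 4.81 in the livers labelled B4galt1 hep-/- (4.78 ± 0.17 and 4.66 ± 0.26, SD). Replicate 2 labelled B4galt1 hep-/- had the lowest value of all livers in 45 members, and either control replicate 4 or hep-/- replicate 1 had the highest in 59. The cytosolic ribosomal proteins and the nuclear subunits of the respiratory chain were also at their lowest mean in hep-/- replicate 2 (7.76 and 6.14). In control replicate 4 both were higher than in the other controls (8.26 and 6.77). Summed per kilobase, members named Mrpl exceeded those named Mrps 1.97- to 2.06-fold in controls and 2.08- to 2.25-fold in the livers labelled B4galt1 hep-/-. Members made up 0.242% to 0.268% of all counts in controls and 0.216% to 0.237% in the livers labelled B4galt1 hep-/-. As a share of the counts that were not mtDNA-encoded, these ranges overlapped, at 0.252% to 0.291% and 0.263% to 0.306%. In whole liver, fewer cells of a type and less RNA per cell cannot be told apart.

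Because this shared rise and fall hides differences between members, each member was also set against the members' mean log2 CPM in the same liver, a measure chosen after the data were seen. On this scale 40 of 78 members did not overlap between groups, 18 below and 22 above, beside 10.6% of all genes below, 14.0% above and 24.7% in either direction when set against the same mean. A similar share was found when cytosolic ribosomal proteins (37 of 81, 45.7%) and nuclear subunits of the respiratory chain (44 of 83, 53.0%) were set against their own means, so that this share was not particular to the mitochondrial ribosome. Of the 11 called members, 10 stayed apart, all but Mrpl3. Mrps6, the counterpart of bacterial S6, was at -1.82, -1.70, -1.43 and -1.67 in controls and at -0.97, -0.98 and -0.99 in the livers labelled B4galt1 hep-/- on this relative log2 scale. Mrpl40, a large-subunit protein found only in mitochondria, was at -0.55, -0.19, -0.25 and -0.37 against -0.66, -0.64 and -0.68. These members, picked after their values were seen, had almost equal relative levels in the livers labelled B4galt1 hep-/-, although those livers differed in CPM. When edgeR's fit was scaled to the members' mean, the same 4 members were higher (5.82% of all genes) and Mrps12, Mrps18b and Mrps18a were lower (3.86% of all genes). In that fit Mrpl3, Mrpl41, Mrps34 and Mrps27 were no longer called, with edgeR's adjusted p between 0.055 and 0.14, and the median over all genes was 0.15.

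**Figure D4:**
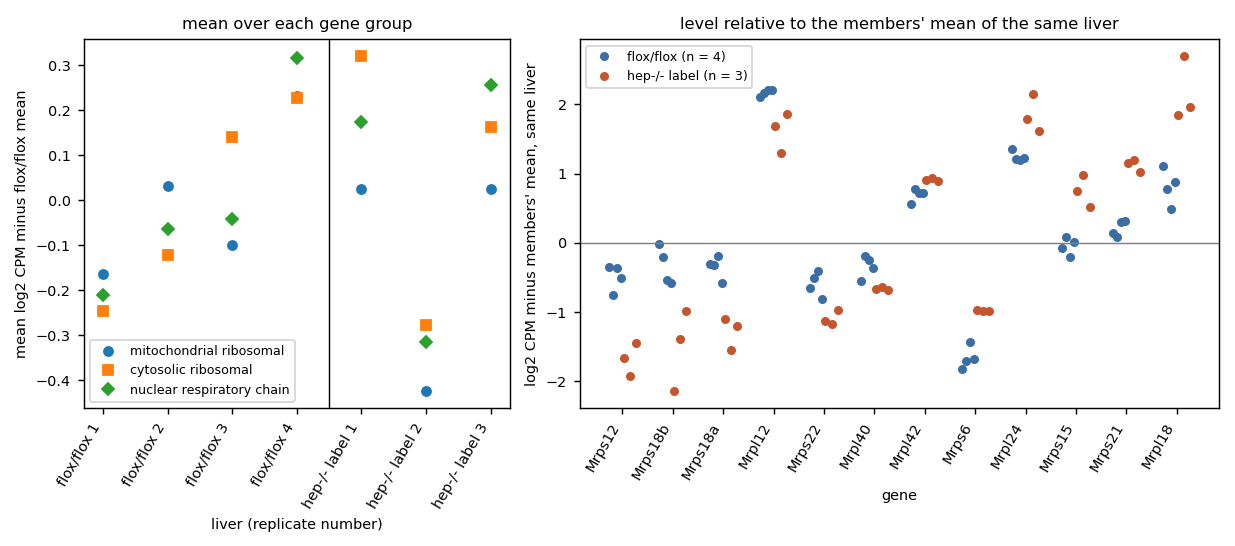
Left, the mean log2 CPM of 3 gene groups in each liver, minus the mean of the 4 flox/flox livers; right, log2 CPM of 12 members minus the mean of the 78 members in the same liver (blue flox/flox, orange livers labelled hep-/-). All 3 groups are lowest in replicate 2 labelled hep-/-, and in each member on the right, chosen after its values were seen, the groups do not overlap.

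The 5 mitoribosomal proteins whose symbols the name rule does not catch had no call in either direction by edgeR, and 1 in each direction had an unadjusted p under 0.05. Gadd45gip1 (0.65 ± 0.24, SE), Aurkaip1 (0.35 ± 0.20) and Dap3 (0.14 ± 0.17) had positive log2 fold changes, and Chchd1 (-0.74 ± 0.27) and Ptcd3 (-0.27 ± 0.21) negative ones. Their median was 0.14. They are not in the classes by subunit and bacterial counterpart given above, which hold only genes caught by the name rule.

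Among the genes that act with the ribosome, translation factors had 4 calls, all lower, in 17 genes (beside 8.0% of all genes higher and 7.83% lower). At an unadjusted p under 0.05, 1 was positive and 6 were negative, beside 16.8% and 16.1% of all genes. Taco1, an activator of the translation of COX1, fell from 13.8 ± 3.23 (SD, n = 4) to 5.14 ± 0.33 CPM (SD, n = 3), a log2 fold change of -1.43 ± 0.24 (SE). The release factor gene Mtrf1 (-1.27 ± 0.33), the elongation factor genes Gfm1 (-1.23 ± 0.32) and Tufm (-1.08 ± 0.23) fell by similar amounts. Of these, Tufm was the tightest in controls, at 79.3 ± 8.67 against 37.5 ± 12.8 CPM. The 20 mitochondrial tRNA synthetases had 3 calls, again all lower (among them Iars2 at -0.92 and Fars2 at -0.85), and a median of -0.20. The shares of all genes are those given for the translation factors. At an unadjusted p under 0.05, 4 synthetase genes were positive and 5 negative. For the translation factors the median was -0.19.

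The 27 genes of ribosome assembly and rRNA modification had 1 call higher and 2 lower by edgeR (8.0% and 7.83% of all genes), with a median of -0.03. Mterf3 rose from 19.3 ± 3.13 to 42.2 ± 4.92 CPM (log2 fold change 1.13 ± 0.19, SE), whereas the GTPase gene Mtg1 (-0.95 ± 0.22) and the 12S rRNA methyltransferase gene Mettl15 (-1.13 ± 0.34) fell. In the 7 genes of mtDNA transcription, Tefm, an elongation factor of the mitochondrial RNA polymerase, fell (-0.96 ± 0.26) and Mterf1a rose (1.69 ± 0.30), although the latter has a close copy in the mouse genome, Mterf1b, with which it may share reads. Of 9 regulators of mitochondrial gene expression, Gabpb1, a subunit of GABP, rose from 7.51 ± 0.80 to 15.1 ± 2.19 CPM (1.01 ± 0.20, SE). Its DNA-binding partner Gabpa was at -0.58 ± 0.22 and Nrf1 at 0.57 ± 0.24, which did not pass.

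The products and neighbours of the ribosome gave different medians. Of 13 mtDNA-encoded mRNAs, which this ribosome translates, 12 were higher and none lower, the median being 1.92 on the log2 scale. The 83 nuclear genes of the respiratory chain and ATP synthase had 4 calls higher, 8 lower and a median of 0.10, where edgeR called 8.0% of all genes higher and 7.83% lower. Among the 81 cytosolic ribosomal proteins tested, 2 were higher, 2 lower, and the median was 0.11. The strip plot of these lists shows the members with a lower median (-0.11) than the nuclear respiratory chain and cytosolic ribosome. The spread of the members lay between theirs (SD of log2 differences 0.48, against 0.55 and 0.40). The mtDNA-encoded mRNAs lay apart from all of them.

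**Figure D5:**
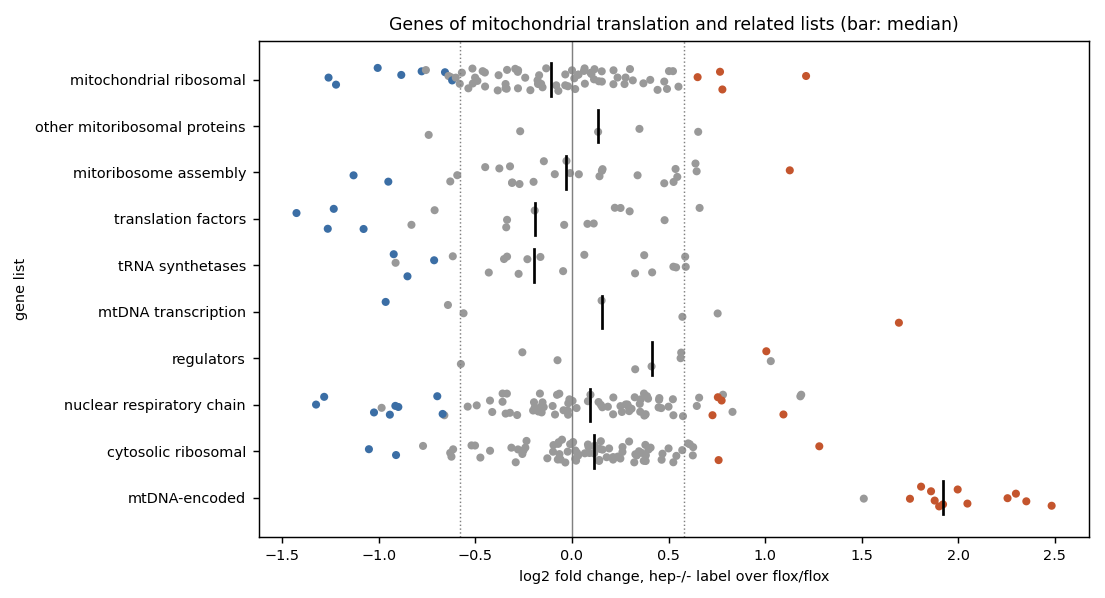
Log2 fold change of each tested gene, with lists on the vertical axis, vertical jitter for visibility, black bars at medians and dotted lines at -0.58 and 0.58. Genes that rose are orange and genes that fell are blue; translation factors and tRNA synthetases hold blue points without orange ones, and the mtDNA-encoded genes lie at 1.51 or above.

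Promoter windows were found by gene identifier for 69 of the 78 members, including 6 of the 7 that fell and 3 of the 4 that rose. The ETS letters CCGGAAG occurred in 25 of them (36.2%), against 16.6% of the windows of 12013 tested genes and 9.12% of all 27025 windows. The YY1 letters AAGATGGCG were found in 8 members (11.6%, against 2.83% and 1.49%) and the NRF1 letters GCGCANGCG in 16 (23.2%, against 12.3% and 6.47%). GGGCGG was found in 34 members (49.3%), between its share in tested genes (59.4%) and in all windows (35.9%). AAGGTCA, the half-site of estrogen-related receptors, was in 4 members (5.80%, against 3.55% and 4.66%). For CACGTG and for GAANNTTC, a heat shock element core, the members' share was 7.25%, against 9.71% and 5.85% of tested genes and 7.24% and 7.95% of all windows. Of the members that fell, 5 of 6 carried the ETS letters (Mrpl3, Mrps12, Mrps18a, Mrps18b and Mrps27). Of those that rose, 2 of 3 did (Mrpl18 and Mrps21). The windows of the members had a median GC content of 58.3%, against 60% for tested genes.

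In the GENCODE annotation of GRCm38, 33 members had a protein-coding neighbour that starts within 1000 bases and runs the opposite way. Of 31 such neighbours that were tested, 5 were higher and 3 lower by edgeR, beside 8.0% and 7.83% of all genes. The log2 fold changes of member and neighbour had the same sign in 12 pairs. Both genes passed in 2 pairs, which fell together. Mrpl41 (-0.78) stood beside Pnpla7 (-0.72), a lysophospholipase gene, and Mrps27 (-0.62) beside Ptcd2 (-0.76), another pentatricopeptide repeat gene. Mrps18b, by contrast, fell while its neighbour Ppp1r10 was at 0.10 ± 0.22 (SE). Mrpl46 (-0.76 ± 0.25) and Mrps11 (0.15 ± 0.18), which are neighbours of each other, were counted from both sides and did not pass.

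Exons of 28 members overlapped exons of a gene on the opposite strand, 5 of them called (Mrpl18, Mrps18b, Mrps27, Mrps34 and Mrpl3). The overlap took 10.1% of the exonic bases of Mrpl18, 30.5% of Mrps18b, 24.2% of Mrps27, 63.4% of Mrps34 and 0.36% of Mrpl3. Whether counting used the strand is not given in the sources used here, so reads of these pairs may not have been told apart. RefSeq also lists pseudogenes named after Mrpl23, Mrpl27, Mrpl48 and Mrps36, none of which was called. Across the 78 members, log2 fold change had a Spearman rho of -0.06 with gene length and of 0.14 with control CPM, which describes genes measured in the same 7 libraries.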

How the data were processed

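Total RNA from whole liver was extracted by the authors with TRIzol and sequenced, 1 library per mouse. The authors deposited raw counts per gene, without normalization, and FPKM values that equal the count divided by gene length and library total. The submitters' processing notes name fastp, HISAT2, HTSeq, DESeq2, R 3.2.0 and GRCm39, without roles. Strand handling is not given in the sources used here.

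Genes were filtered with filterByExpr (minimum count 10, minimum total count 15), which kept 15179 of 23347, scaled with TMM factors, and compared by the quasi-likelihood test of edgeR 4.0.16 under R 4.3.3 (group as the only term, Benjamini-Hochberg adjustment over all genes tested). Calls needed an adjusted p under 0.05 together with a log2 fold change beyond 0.58 in either direction. DESeq2 1.42.0 and limma 3.58.1, which was run on log2(FPKM + 1) and log2(FPKM + 0.1), were alternatives, with other normalizations and filters, voom weights, a replicate block and each mouse left out in turn. The fit with the replicate block left out control replicate 4. In the FPKM fits, fold changes of low genes are understated. Total counts were 30608271 to 39668509, and 3 counts correspond to 0.0690 to 0.0987 CPM. Each library is taken as a separate mouse from its label, and p-values measure the spread between these samples. No 2 of the 7 libraries agreed within sampling noise. The fits were first tested on simulated data.

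The members and gene lists were chosen with earlier results of these data known. Members named with values are the called ones, the 5 highest and 3 lowest per length in controls, the Mrps18 paralogues and members of known role. Others were named after their values were seen. A called gene of the context lists is not reported here by name. Windows around gene starts and annotation came from RefSeq and GENCODE on GRCm38, and no coordinates were converted. Columns not used numbered 0, counting those with sample values.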

Additional observations from a re-analysis of the deposited data

Results flagged for a closer look

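In 23 genes, the highest or lowest of the 4 B4galt1 flox/flox livers was compared with the rest by Dixon's rule, by which chance marks about 1 in 20 genes. Mrpl52, a large-subunit protein found only in mitochondria, was the 1 gene marked. It stood at 43.7 CPM in control replicate 4, and the nearest control was at 31.2 CPM. This gap made up 0.894 of the range of the 4 controls, above the 95% critical value for 4 samples.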

How the results depend on the processing

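The direction of the 11 called members held in every alternative, but most calls moved. The calls of Mrpl18, Mrps12 and Mrps18b held throughout, and Mrps18a lost its call without control replicate 2. Mrps15 lost its call in the FPKM fits, Mrpl3 and Mrpl38 in that with all genes above 0, and Mrps27 with genes of at least 1 count. Mrpl12 and Mrps18c gained a call in the 3 FPKM fits. Of the 4 higher and 7 lower members, the higher count became 7 with voom weights (10.2% of all genes higher). It became 2 with limma on log2(FPKM + 1) for all genes above 0 (1.05%). The lower count became 18 with either FPKM pseudocount (15.9% and 17.8% of all genes lower for 1 and 0.1) and 15 with all genes above 0 (4.74%). It was 10 with DESeq2 (10.3%) and with voom weights (9.53%), and 3 when scaled to the members' mean (3.86%). FPKM values divide by library totals that include mtDNA-encoded counts. With an FPKM of at least 1 in 3 mice, they moved the median of all genes to -0.14 and -0.18 for the pseudocounts 1 and 0.1. There 3 members were higher and the members' median was -0.21 and -0.22. With FPKM + 1 for all genes above 0, the median of all genes was -0.0032 and that of the members -0.21. With 1 mouse left out, 1 to 4 members were higher, 2 to 9 lower, and the median of the members, -0.11, ran from -0.21 to 0.0071. It was 0.0023 without control replicate 4 and 0.0071 without hep-/- replicate 2. Relative to the members' mean, the count of 40 ran from 40 to 49. B4galt1 passed the test at -0.67 and -0.73 with FPKM + 1 and FPKM + 0.1, but not with FPKM + 1 for all genes above 0 (limma's adjusted p = 0.11). It ran from -0.96 to -0.30 with 1 mouse left out and passed without hep-/- replicate 3 (-0.96). The sign of the log2 fold change turned in at least 1 of the other settings, leaving aside the fit scaled to the members' mean, for 18 members, none of them called and each within 0.17 of 0. The sign of Mrps36 turned in 5 settings, and it ran from -0.22 to 0.10. The members named by rule whose sign turned were Mrpl42 (-0.027 in each of the 3 FPKM fits), Mrpl45 (-0.00013 without mtDNA-encoded genes, -0.019 with genes of at least 1 count, -0.12, -0.13 and -0.12 with FPKM, and from -0.12 to 0.11 with 1 mouse left out) and Mrpl58 (0.049 without control replicate 4, from -0.19 to 0.049 over the fits without 1 mouse, and 0.073 when scaled to the members' mean). Mrpl45 was at -0.06 and -0.003 without control replicates 1 and 3, and at -0.02 and -0.12 without hep-/- replicates 1 and 3. The causes were not tested. With the replicate number as a block, a fit that also left out control replicate 4, 1 member was higher and 4 were lower (4.22% and 3.92% of all genes). The calls of Mrps21, Mrpl38, Mrps15, Mrpl41, Mrps34 and Mrps27 were lost, and Mrpl58 was at 0.050. Without control replicate 4 and with no block, 4 were higher and 4 lower, the calls of Mrpl41, Mrps34 and Mrps27 being lost there too. Deviations of same-numbered mice had correlations of -0.42, -0.10 and 0.09, where those of differently numbered mice ran from -0.34 to 0.56. With so few mice, these values cannot show whether the numbers pair the mice. At these depths every member had at least 180 counts.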
